A study of Mesocricetus auratus with 36 samples.

Results

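The comparison was between golden hamsters (Mesocricetus auratus) that had hibernated and then stopped without any outside signal, called refractory, and hamsters at the start of the same winter regime, in RNA from a laser-captured strip of hypothalamic ependyma enriched for tanycytes. Refractory animals were 8 months old, had spent about 20 weeks at 10 h of light per day and 8 °C, were at least 2 weeks past their last torpor bout and are labelled reproductive. Pre-hibernation animals were 4 months old and had spent 4 weeks under the same light and temperature. Animals of both groups were males that carried an implanted temperature logger and were killed under isoflurane, and the labels name no transgene or mutant allele. Libraries were chosen by title, 6 refractory and 6 pre-hibernation, or 12 of the 36 in the series. It also holds long photoperiod, late pre-hibernation, interbout and torpor groups. Long photoperiod hamsters were 8 months old, at 14 h of light per day and 22 °C. Late pre-hibernation, interbout and torpid hamsters were 6 months old, with 8 to 12 weeks at 10 h of light and 8 °C. Refractory library 4 and pre-hibernation library 5 carried over 5% of their counts on ribosomal RNA genes, so the main results rest on 5 refractory and 5 pre-hibernation libraries, 1 brain each, and results with all libraries follow them. The refractory and pre-hibernation groups shared light and temperature. Age, time under the regime, torpor history and reproductive state differed together between them and cannot be told apart.

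Tanycytes are glial cells with long processes along the base of the third ventricle that take up hormones and nutrients from blood and cerebrospinal fluid, and that help set seasonal physiology. In photoperiodic mammals, thyrotropin from the pars tuberalis acts on their receptor Tshr and sets the balance of Dio2, the deiodinase that makes active thyroid hormone, and Dio3, the deiodinase that destroys it. Animals kept long enough on short days become refractory to them, and their summer physiology returns without any change of light.

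The refractory libraries used held 17.14 to 28.54 M counts and the pre-hibernation libraries used held 21.89 to 24.92 M (M, 1e+06 counts), with under 1% on ribosomal RNA genes in each. Refractory library 4 held 5.16 M counts, with 41.8% from ribosomal RNA genes and 18.3% from mitochondrial ones, and pre-hibernation library 5 held 12.74 M counts with 9.28% and 11.8%. Tanycyte markers were present in every library: their summed level was 2518 to 4459 CPM (counts per 1e+06 counts, with TMM scaling) in refractory libraries and 3200 to 4094 CPM in pre-hibernation libraries, with refractory library 1 the lowest. Vim, an intermediate filament gene of tanycytes, stood at 990.1 to 1332 CPM in refractory libraries and 1104 to 1423 CPM in pre-hibernation libraries. In bulk tissue, fewer cells of a type and less RNA per cell cannot be told apart.

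Of 17903 genes tested, 251 were higher and 469 were lower in refractory than in pre-hibernation hamsters at an adjusted p below 0.05, which is 1.40% and 2.62% of the genes tested and 4.02% together. Adjusted p values throughout are Benjamini-Hochberg values from edgeR's quasi-likelihood test over all genes tested. The median log2 fold change of all genes tested was 0.01. Among the genes that passed, 65 rose and 151 fell by 2-fold or more. The 5 refractory libraries lay wholly above or below the 5 pre-hibernation libraries for 532 of the genes that passed, and for 1151 of all genes tested (6.43%; 2.76% above and 3.66% below). With all 36 libraries in the fit, 959 of 17926 genes passed (5.35%), 491 higher (2.74%) and 468 lower (2.61%), and 405 of these had passed in the same direction without the ribosomal RNA-rich libraries. Refractory library 4 put back alone gave 886 genes that rose and 544 that fell, whereas pre-hibernation library 5 put back alone gave 255 and 500. Library 4 on its own thus moved the number of rises by more than the other library did, and for genes whose call all libraries change that adjusted p is given. Leaving out 1 of the 10 libraries also moved the count, to 253 without pre-hibernation library 4, 267 without refractory library 1, 292 without refractory library 2, 340 without pre-hibernation library 6, 423 without refractory library 5 and 450 without pre-hibernation library 3. Of the 95 genes named by rule that passed, 45 passed without pre-hibernation library 4 and 50 without refractory library 1. With all libraries 70 passed, and 38 passed in all 10 fits that left out 1 library. With neuron and oligodendrocyte marker levels as covariates 32 of the 95 passed. With 2 surrogate variables, factors estimated from the counts, 42 passed. Gpr50, Hapln1, Ddit4, Glul and Sema3b were among those that did not pass with the marker covariates (adjusted p = 0.109, 0.185, 0.113, 0.226 and 0.124).

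Dio3, which inactivates thyroid hormone, was much lower in refractory hamsters. Dio3 had 1.71, 9.01, 6.53, 4.96 and 8.77 CPM in refractory libraries 1, 2, 3, 5 and 6, against 28.3, 90.5, 46.8, 53.9 and 51.6 CPM in pre-hibernation libraries 1, 2, 3, 4 and 6. The highest refractory library stood below the lowest pre-hibernation library. Its log2 fold change was -3.14 ± 0.73 (SE, adjusted p = 0.0147), with all libraries -2.92 (adjusted p = 0.0125), and without refractory library 1 it missed the threshold at 0.0525. Dio3 was given 11.5 CPM in pre-hibernation library 5, the lowest value of that group.

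Dio2, its counterpart, did not pass. It averaged 4.77 ± 1.92 CPM in refractory hamsters and 5.84 ± 1.52 CPM in pre-hibernation hamsters (SD, n = 5 each; adjusted p = 0.731), and the groups overlapped. On a long photoperiod, in hamsters of the series kept at 14 h of light and 22 °C, Dio2 averaged 46.1 ± 20.9 CPM (SD, n = 6) and Dio3 5.86 ± 2.68 CPM. The refractory mean of Dio3 was near the long photoperiod mean and that of Dio2 was well under it, differences that were not tested.

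The rest of the thyroid hormone list changed little. Of 18 members tested, 1 rose, 1 fell and 16 did not pass (11.1% called, against 4.02% of all genes). The list median was 0.11 on the log2 scale. The riser was Klf9, a transcription factor induced by thyroid hormone and glucocorticoids, at 24.5 ± 4.06 CPM in refractory and 17.6 ± 1.83 CPM in pre-hibernation hamsters (log2 fold change 0.48 ± 0.12, adjusted p = 0.0245; 0.171 with all libraries). Klf9 lost the call in 4 of the 10 leave-one-out fits, in each of which 1 library was omitted. Thrb, a thyroid hormone receptor, averaged 48.0 ± 17.6 CPM in refractory and 82.4 ± 20.1 CPM in pre-hibernation hamsters without overlap between libraries, but did not pass (log2 fold change -0.78 ± 0.26, adjusted p = 0.0822). Thrb exons overlap those of 2 unnamed genes, and counting was unstranded. Tshr (adjusted p = 0.383) and the thyroid hormone target Hr (0.17) did not pass.

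Of the 10 members tested on the list for pars tuberalis and photoperiod input, 1 rose and 1 fell (20.0%, against 4.02% of all genes). Gpr50, a melatonin receptor relative found in tanycytes, had 0.476, 0.995, 1.12, 2.84 and 2.92 CPM in refractory libraries against 5.24, 7.54, 7.79, 5.19 and 9.90 CPM in pre-hibernation libraries. Every refractory value lay below every pre-hibernation value (log2 fold change -2.07 ± 0.50, adjusted p = 0.0164; 0.0597 without refractory library 1). Chga, a protein of secretory granules, rose with overlap between groups (1.18 ± 0.31, adjusted p = 0.0274) and lost the call in 6 of the 10 leave-one-out fits.

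Retinoic acid signalling, the other hormone pathway of seasonal tanycytes, changed in 3 genes, for a carrier protein and for enzymes. Crabp1, which binds retinoic acid in the cytoplasm, had 20.7, 20.9, 35, 23.1 and 20.1 CPM in refractory libraries against 11.2, 5.07, 7.75, 8.01 and 10.5 CPM in pre-hibernation libraries. All 5 refractory libraries were higher, library 3 most of all (log2 fold change 1.5 ± 0.19, adjusted p = 1.71e-05), and the call held in all 10 leave-one-out fits. With all libraries Crabp1 still passed (1.04, adjusted p = 0.0109), although refractory library 4 had only 7.54 CPM and pre-hibernation library 5 had 20.4 CPM. Rdh10, which oxidises retinol, averaged 27.1 ± 7.95 CPM in refractory and 15.5 ± 1.92 CPM in pre-hibernation hamsters (adjusted p = 0.0326), and Aldh1a3, which makes retinoic acid, averaged 3.26 ± 1.11 CPM and 7.78 ± 2.45 CPM (adjusted p = 0.0346; 0.0504 with all libraries). Both overlapped between groups and lost the call in 7 and 6 of the 10 leave-one-out fits. Stra6, the retinol uptake receptor, averaged 168 ± 74.0 CPM in refractory and 103 ± 30.7 CPM in pre-hibernation hamsters (adjusted p = 0.467), and Lrat, which stores retinol as esters, 5.18 ± 1.39 CPM and 7.14 ± 2.28 CPM (adjusted p = 0.546). Long photoperiod hamsters averaged 504 ± 194 CPM of Stra6 and 79.0 ± 41 CPM of Lrat (SD, n = 6). Of 18 retinoid genes tested, 2 rose, 1 fell and 15 did not pass (16.7% called, against 4.02% of all genes).

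**Figure D1:**
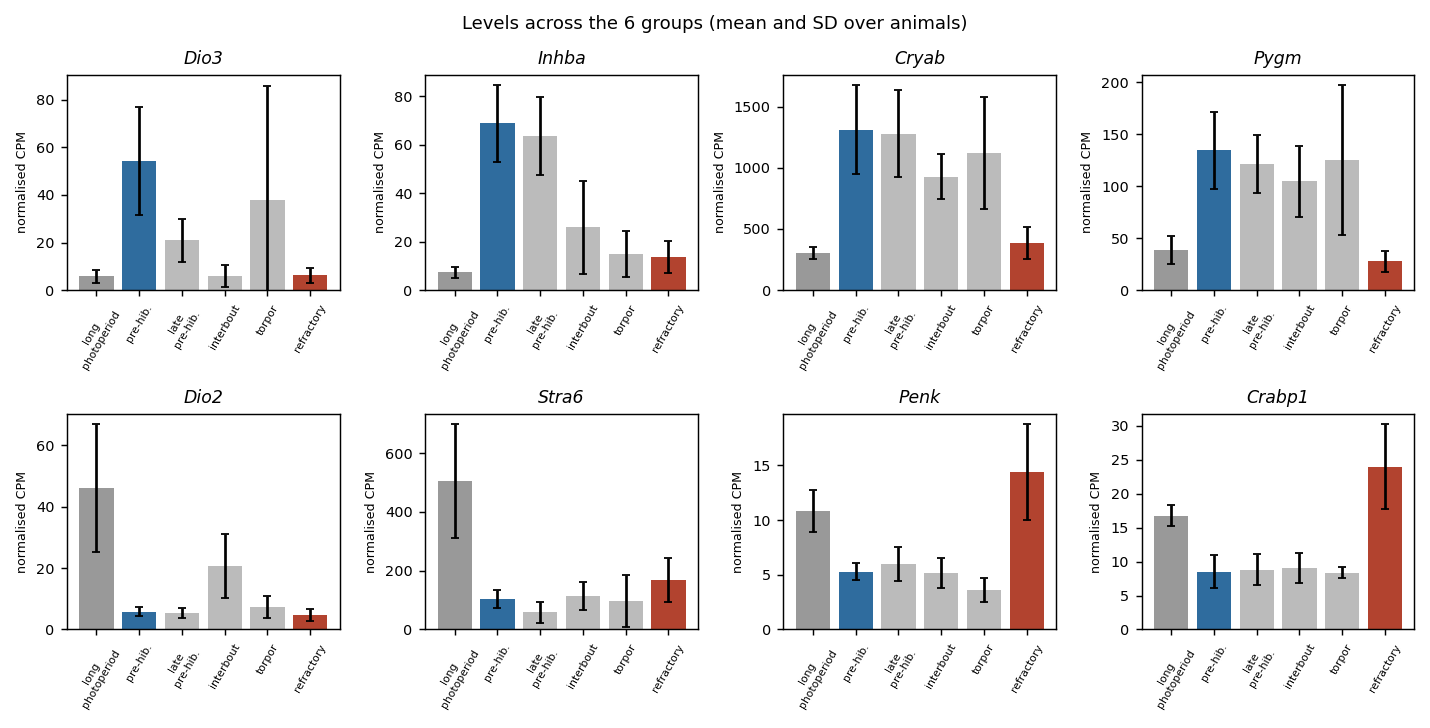
Mean normalised CPM (vertical axis, linear) with SD over animals of 8 genes in the 6 groups, ordered from long photoperiod through winter to the refractory state; n is 5 for pre-hibernation, interbout and refractory groups and 6 for the others. Dio3, Cryab and Pygm in refractory hamsters stand near their long photoperiod means and below their pre-hibernation means, Dio2 and Stra6 stay below their long photoperiod means, and Penk and Crabp1 stand highest in refractory hamsters.

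Inhba, which encodes the activin A subunit, was 5.00-fold lower in refractory hamsters. Its levels were 7.18, 14.98, 15.1, 8.22 and 23.4 CPM in refractory libraries and 55.1, 59.7, 68.2, 95.7 and 65.7 CPM in pre-hibernation libraries. The groups were far apart, and the call held in all 10 leave-one-out fits (log2 fold change -2.32 ± 0.42, adjusted p = 0.00213). Long photoperiod hamsters averaged 7.29 ± 2.34 CPM (n = 6), late pre-hibernation hamsters 63.6 ± 16.1 CPM (n = 6), interbout hamsters 25.9 ± 19.3 CPM (n = 5) and torpid hamsters 14.9 ± 9.48 CPM (n = 6). Fstl3, a secreted protein that binds and blocks activin, fell as well, to 5.21 ± 1.00 CPM in refractory hamsters against 9.74 ± 0.637 CPM in pre-hibernation hamsters (-0.90 ± 0.16, adjusted p = 0.00175). Inhba and Fstl3 were the members that passed among 35 genes tested of activin, BMP and TGF beta signalling. This was 5.71%, against 4.02% of all genes, and the list median was 0.03.

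Most small heat shock proteins, chaperones that hold damaged proteins in solution, fell. Cryab had 304, 424, 316, 280.2 and 593 CPM in refractory libraries against 897, 1615, 929, 1607 and 1510.0 CPM in pre-hibernation libraries. The groups did not overlap, and refractory library 6 was the highest of its group (log2 fold change -1.77 ± 0.27, adjusted p = 0.000353). Hspb1 had 48.0, 58.7, 41.9, 32.9 and 50.5 CPM in refractory libraries against 104.5, 210.2, 136, 204 and 152 CPM in pre-hibernation libraries (-1.80 ± 0.31, adjusted p = 0.00162). Hspb7 averaged 13.7 ± 4.54 CPM in refractory and 43.9 ± 4.65 CPM in pre-hibernation hamsters, Hspb2 62.9 ± 20.96 CPM and 118 ± 21.6 CPM, and Hspb6 46.8 ± 13.1 CPM and 87.7 ± 12.0 CPM, with adjusted p of 0.0157, 0.0145 and 0.0135. These 3 missed the threshold without refractory library 1 (Hspb7 0.0586, Hspb2 0.0585 and Hspb6 0.0564), Hspb2 overlapped between groups, and Hspb8 did not pass (-0.03, adjusted p = 0.905). Hsf2, a transcription factor of the heat shock family, fell to 64.9 ± 6.21 CPM in refractory hamsters against 98.3 ± 12.7 CPM in pre-hibernation hamsters (-0.60 ± 0.11, adjusted p = 0.00207). Cryab, Hspb1 and Hsf2 passed in all 10 leave-one-out fits and with all libraries, and also with neuron and oligodendrocyte marker levels as covariates.

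Over the whole heat shock list 8 of 28 genes tested fell, 1 rose and 19 did not pass. This was 32.1% called, against 4.02% of all genes, and 7 fell with all libraries. The other 2 that fell were the cochaperone Dnajb5 (-0.87 ± 0.20) and Hspa13 (-0.83 ± 0.23; adjusted p = 0.0932 with all libraries), and the riser was Ahsa1, a cochaperone of Hsp90 (0.20 ± 0.06, adjusted p = 0.0465; 0.839 with all libraries). The large chaperones did not pass: Hspa8 averaged 2427 ± 339 CPM in refractory and 2686 ± 262 CPM in pre-hibernation hamsters (adjusted p = 0.447), and Hsp90aa1 2899 ± 454 CPM and 2415 ± 228 CPM (adjusted p = 0.168). The list median was -0.08, near that of all genes, and without refractory library 1 only 4 members fell. Rbm3, a cold-induced RNA-binding protein, was at 232 ± 28.7 CPM in refractory and 274 ± 17.98 CPM in pre-hibernation hamsters and did not pass (adjusted p = 0.119). It passed with limma voom (adjusted p = 0.0333) and with the replicate number as a block (0.0453), but not with DESeq2 (0.101) or all libraries (0.349).

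**Figure D2:**
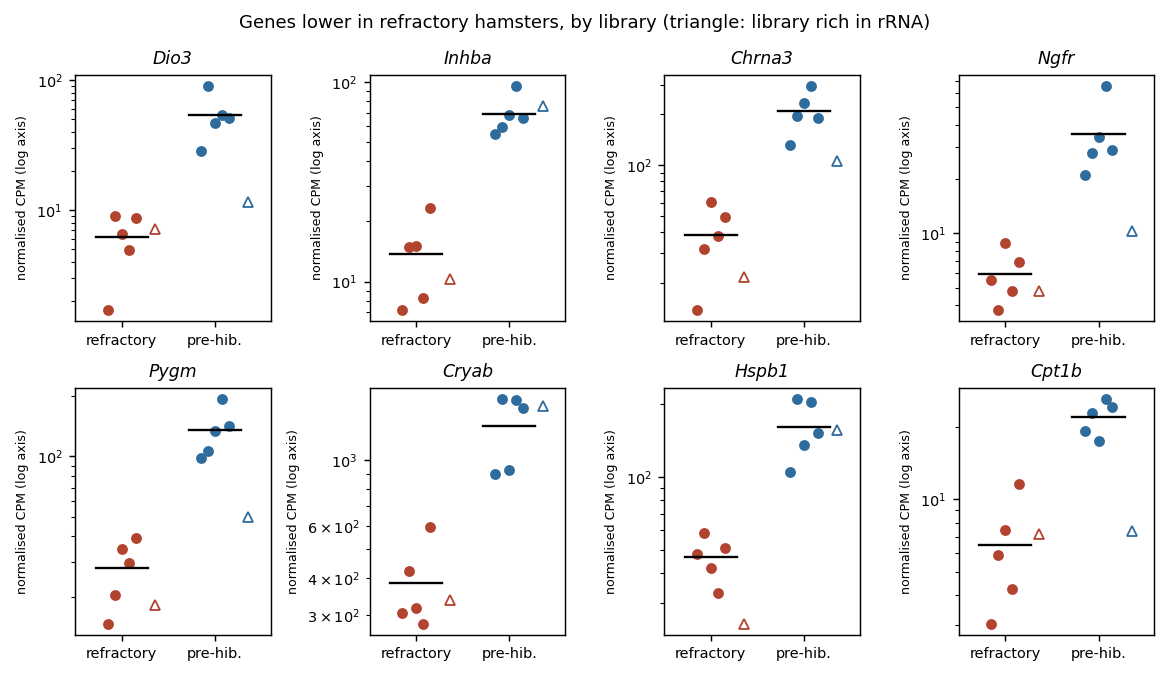
Normalised CPM (vertical log axis) of 8 genes that fell, in 5 refractory libraries (left, red) and 5 pre-hibernation libraries (right, blue); points are libraries, bars are group means, and open triangles are refractory library 4 and pre-hibernation library 5 as scaled with all 36 libraries. In each panel every filled refractory point lies below every filled pre-hibernation point, and the triangle of pre-hibernation library 5 lies near the refractory points for Dio3 (11.5 CPM) and Cpt1b (7.37 CPM).

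A part of the genes induced by interferon or used in antigen processing fell in refractory hamsters. Of 29 members tested, 10 fell (34.5%, against 2.62% of all genes), none rose and 19 did not pass. The median log2 fold change was -0.55 against 0.01 for all genes. Psmb8, a catalytic subunit of the immunoproteasome, had 12.9, 13.9, 20.99, 12.5 and 21.7 CPM in refractory libraries against 45.6, 51.4, 43.4, 44.98 and 50.4 CPM in pre-hibernation libraries. The pre-hibernation values were tight, all more than 2-fold above the mean of the refractory ones (log2 fold change -1.52 ± 0.24, adjusted p = 0.000379; 7.95e-05 with all libraries). Its partner subunit Psmb9 (-0.72 ± 0.21) and the peptide transporter Tap2 (-0.80 ± 0.23) also fell, both without overlap between groups, but they lost the call in 8 and 7 of the 10 leave-one-out fits.

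The interferon-stimulated genes proper were more uneven among animals. Isg15, a ubiquitin-like modifier, had 0.635, 0.527, 0.179, 0.423 and 0.493 CPM in refractory libraries against 3.17, 2.43, 1.32, 1.11 and 1.26 CPM in pre-hibernation libraries (-2.03 ± 0.37, adjusted p = 0.0018). Mx1, an antiviral GTPase, had 44.1 to 63.5 CPM in refractory libraries against 203, 89.5, 67.3, 77.5 and 125 CPM in pre-hibernation libraries (-1.05 ± 0.21, adjusted p = 0.00542). Irf7, the factor that drives this response, had 7.37 to 14.9 CPM in refractory libraries against 27.3, 82.2, 15.9, 16.3 and 19.2 CPM in pre-hibernation libraries (-1.56 ± 0.34, adjusted p = 0.00989; 0.0538 without pre-hibernation library 2). For all 3 genes the highest values came from pre-hibernation library 1 or 2, although the groups did not overlap.

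Ube2l6, the enzyme that conjugates Isg15, had 2.81 to 5.12 CPM in refractory libraries against 7.13 to 19.6 CPM in pre-hibernation libraries (-1.53 ± 0.22, adjusted p = 9.06e-05). Rsad2, an antiviral enzyme, fell by 1.12 ± 0.22 on the log2 scale (adjusted p = 0.00413; 0.0877 with all libraries). Ifit3 and Usp18, both interferon-induced, fell with overlap between groups (adjusted p = 0.0446 and 0.0235; 0.23 and 0.118 with all libraries). In 5 of the leave-one-out fits, without pre-hibernation library 1 or 6 or refractory library 1, 2 or 5, 5 of the 29 fell, and 7 fell with all libraries. With neuron and oligodendrocyte marker levels as covariates Psmb8 alone of the 29 passed (adjusted p = 0.00988), with a list median of -0.42, and Ube2l6, which is not on the list, passed too (-1.54, adjusted p = 0.00129).

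Microglia make complement and respond to interferon, and their part in the interferon results was not tested. Of 16 microglia and macrophage markers tested, 12 had a positive fold change, with a list median of 0.37. These markers summed to 426.5 to 596 CPM in refractory and 291 to 707 CPM in pre-hibernation libraries, with pre-hibernation library 2 the highest. Of the 16, 0 passed with edgeR, 1 with DESeq2 and 3 with limma voom. An unadjusted p under 0.05 was found for 6, against 3990 of all 17903 genes tested. C1qa, C1qb and C1qc had higher means in refractory hamsters and did not pass (adjusted p = 0.208, 0.107 and 0.196). Cd74 had 523 CPM in pre-hibernation library 2 and 175 CPM in refractory library 3, against 44.9 CPM or less in the other 8 libraries. B2m, the invariant chain of class I antigen presentation, averaged 266 ± 41.9 CPM and 262 ± 67.5 CPM.

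**Figure D3:**
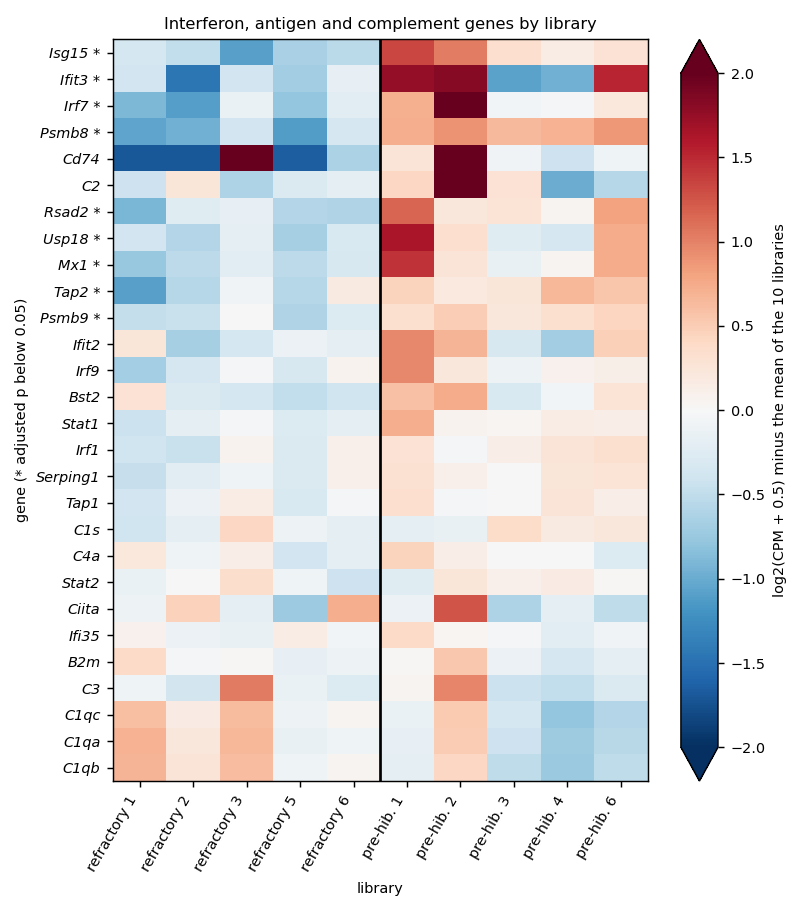
Heat map of 28 interferon, antigen presentation and complement genes tested; rows are genes ordered by log2 fold change, columns are the 5 refractory libraries (left) and the 5 pre-hibernation libraries (right), and colour is log2(CPM + 0.5) minus the mean of the 10 libraries. Genes with an asterisk fell; their pre-hibernation values are highest in libraries 1 and 2 for Isg15, Ifit3 and Irf7 and even across libraries for Psmb8.

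Neuropeptide transcripts were mostly higher in refractory hamsters. Of 18 hypothalamic neuropeptide genes tested, 5 rose, 1 fell and 12 did not pass (33.3% called, against 4.02% of all genes). A positive fold change was found for 16 of the 18, with a list median of 1.11 on the log2 scale. Penk, the precursor of enkephalins, had 12.6, 14.0, 20.9, 8.84 and 15.6 CPM in refractory libraries against 6.03, 5.38, 4.31, 4.72 and 5.95 CPM in pre-hibernation libraries (1.44 ± 0.23, adjusted p = 0.000355). Every refractory library was higher, and the call held in all 10 leave-one-out fits. Cartpt, which encodes an appetite-suppressing peptide, had 83.2, 59.3, 70.8, 52.8 and 46 CPM in refractory libraries against 14.97, 16.3, 24.4, 10.8 and 37.1 CPM in pre-hibernation libraries (1.59 ± 0.37, adjusted p = 0.0146; 0.0607 without pre-hibernation library 4). Ghrh, the releaser of growth hormone, had 10.2, 8.43, 8.06, 5.19 and 11.8 CPM in refractory libraries against 2.99, 2.47, 3.21, 2.04 and 4.60 CPM in pre-hibernation libraries (1.51 ± 0.34, adjusted p = 0.0119). For Cartpt and Ghrh the groups of 5 libraries did not overlap. With all libraries Cartpt still passed (1.18, adjusted p = 0.0452), although refractory library 4 had only 19.5 CPM of it.

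Kiss1, whose peptide drives the neurons of reproduction and which is low on short days in hamsters, had 2.58, 4.33, 10.2, 3.50 and 4.40 CPM in refractory libraries against 1.76, 0.982, 1.58, 1.99 and 2.39 CPM in pre-hibernation libraries. The lowest refractory library was close to the highest pre-hibernation library, and refractory library 3 was the highest (1.52 ± 0.37, adjusted p = 0.0164). Without that library the adjusted p was 0.0632, and with all libraries it was 0.00826. Long photoperiod hamsters averaged 5.11 ± 1.40 CPM of Kiss1 (n = 6), close to the refractory mean of 4.99 CPM. Gal, the galanin precursor, rose to 75.3 ± 20.0 CPM in refractory hamsters against 37.1 ± 7.49 CPM in pre-hibernation hamsters (adjusted p = 0.0329), and lost the call in 5 of 10 leave-one-out fits. Pdyn, the dynorphin precursor, went the other way, with 46.8 to 72.8 CPM in refractory and 83.1 to 132 CPM in pre-hibernation libraries (-1.01 ± 0.22, adjusted p = 0.00984). Npvf, which encodes the RFamide peptides upstream of Kiss1 in hamsters, was at 1.27 ± 1.62 CPM in refractory and 0.698 ± 0.568 CPM in pre-hibernation hamsters and did not pass (adjusted p = 0.528).

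Markers of neurons moved in the same direction as the peptides. Of 19 neuron markers tested, 3 rose, 1 fell and 15 did not pass (21.1% called, against 4.02% of all genes). The 19 markers had a positive fold change in 17 cases and a median of 0.71. Their summed level was 1006 to 1515 CPM in refractory and 898 to 1149 CPM in pre-hibernation libraries, highest in refractory libraries 1 and 3. Those that rose were Gad2, which makes GABA (1.26 ± 0.27, adjusted p = 0.00936), Slc32a1, the vesicular GABA transporter (1.22 ± 0.29, adjusted p = 0.0146), and Uchl1, an abundant neuronal hydrolase (0.78 ± 0.20, adjusted p = 0.0244; 0.0696 with all libraries). Eno2, the neuronal enolase, fell (-0.54 ± 0.15, adjusted p = 0.0405). With neuron and oligodendrocyte marker levels as covariates, Penk rose (0.98, adjusted p = 0.0175) and Pdyn fell (-1.08, adjusted p = 0.0412), whereas Cartpt (0.84, adjusted p = 0.187), Ghrh (1.17, 0.119), Kiss1 (1.03, 0.23) and Gal (0.49, 0.344) did not pass. Genes of neurons among the largest rises were Calb2, a calcium-binding protein, at 50.8 ± 18.4 CPM in refractory and 20.1 ± 3.34 CPM in pre-hibernation hamsters (1.34 ± 0.36, adjusted p = 0.036), Cbln2, a synapse organiser (1.55 ± 0.45, adjusted p = 0.0464), and Dpp10, a potassium channel subunit (1.39 ± 0.34, adjusted p = 0.0172). Calb2 and Cbln2 each lost the call in 8 of 10 leave-one-out fits.

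**Figure D4:**
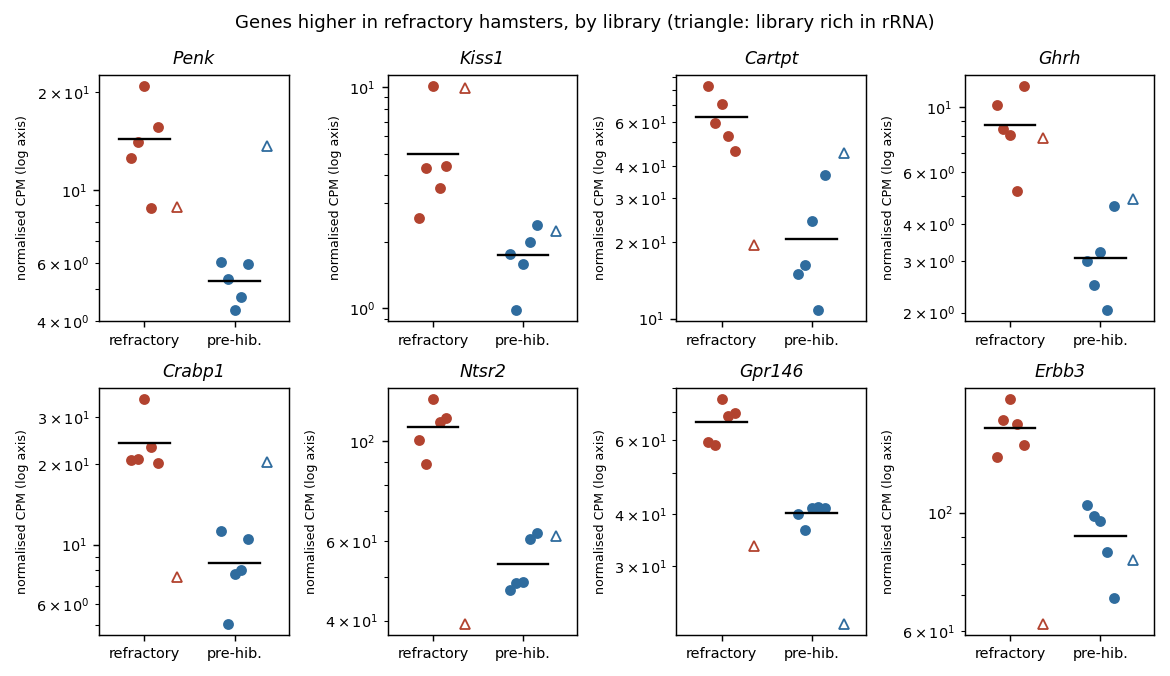
Normalised CPM (vertical log axis) of 8 genes that rose, drawn as for the genes that fell: 5 refractory libraries (left, red), 5 pre-hibernation libraries (right, blue), bars for group means, open triangles for the libraries rich in ribosomal RNA. Filled points of the groups do not overlap in any panel. Refractory library 4 (triangle) lies below all other refractory libraries for Cartpt (19.5 CPM), Crabp1, Ntsr2, Gpr146 and Erbb3.

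Pituitary transcripts were present in some refractory libraries and not in others. Gh1, growth hormone, had 0.198, 88.5, 547, 0.269 and 3.73 CPM in refractory libraries against 0, 2.12, 0.308, 0 and 0 CPM in pre-hibernation libraries. The fit called it higher (log2 fold change 7.93 ± 1.98, adjusted p = 0.0238), but refractory libraries 1 and 5 stood below pre-hibernation libraries 2 and 3. Pomc, the precursor of corticotropin and melanocortins, had 77.7, 126, 1094, 67.8 and 1409 CPM in refractory libraries against 73.5, 80.4, 65.9, 56.1 and 77.0 CPM in pre-hibernation libraries and did not pass (2.98 ± 0.88, adjusted p = 0.0517), although it did with all libraries (2.48, adjusted p = 0.0481). The 11 pituitary markers tested summed to 173 to 2049 CPM in refractory libraries and 140.5 to 329 CPM in pre-hibernation libraries. The high sums were those of refractory libraries 3 and 6. Of these markers 2 rose (Gh1 and the corticotroph factor Tbx19), or 18.2% against 1.40% of all genes. None rose without refractory library 3, pre-hibernation library 3 or pre-hibernation library 6, and Pitx1 was under the filter on low counts. The part of pituitary tissue in the neuropeptide results was not tested.

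Genes of fuel use fell in a few members with large changes. Pygm, the glycogen phosphorylase of muscle and astrocytes, had 14.8, 20.4, 34.8, 29.5 and 39.2 CPM in refractory libraries against 98.6, 106.5, 133, 193 and 142 CPM in pre-hibernation libraries. Every refractory library was more than 2-fold below the lowest pre-hibernation library (log2 fold change -2.28 ± 0.35, adjusted p = 0.000412). Cpt1b, the muscle form of the enzyme that admits fatty acids to mitochondria, had 3.05, 5.85, 7.47, 4.26 and 11.6 CPM in refractory libraries against 19.2, 22.7, 17.4, 26.03 and 24.2 CPM in pre-hibernation libraries (-1.76 ± 0.32, adjusted p = 0.00198). Both calls held in all 10 leave-one-out fits. Slc25a20, which carries acylcarnitines into mitochondria (-0.46 ± 0.09, adjusted p = 0.00326), and Slc2a4, the insulin-responsive glucose transporter (-0.69 ± 0.18, adjusted p = 0.0244), were lower by smaller amounts.

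Most other members of these lists did not pass. Of 22 glycogen genes tested 3 fell (13.6%, against 2.62% of all genes), the others being Pgm2 (adjusted p = 0.0197; 0.346 with all libraries) and the phosphorylase kinase subunit Phka2, and the median was -0.16. Of 32 genes of fatty acid oxidation and ketone bodies 3 fell (9.38%) and the median was -0.09. Cpt1a, the liver form, averaged 54.9 ± 12.0 CPM in refractory and 74.3 ± 4.57 CPM in pre-hibernation hamsters and did not pass (adjusted p = 0.0824; 0.0434 with all libraries). Of 27 glycolytic genes 1 fell (3.7%, against 2.62% of all genes). This was Eno2, also a neuron marker, which lost the call in 5 of the 10 leave-one-out fits. Of 53 cytosolic ribosomal protein genes, 0 passed with edgeR, DESeq2 or limma voom. An unadjusted p under 0.05 was found for 0 of the 53, against 3990 of all 17903 genes tested.

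Sterol synthesis leaned down with small changes. Of 28 sterol and fatty acid synthesis genes tested, 5 fell (17.9%, against 2.62% of all genes). A negative fold change was found for 24 of the 28, with a median of -0.19 over the list. Hmgcs1 and Fdft1, enzymes of cholesterol synthesis, were among those that fell (-0.37 ± 0.11 and -0.24 ± 0.07 on the log2 scale; adjusted p = 0.174 and 0.209 with all libraries). None of the 28 fell without pre-hibernation library 4 or without refractory library 1, 1 without pre-hibernation library 6, 2 without pre-hibernation library 3 or refractory library 2, and 3 without refractory library 5. With all libraries 2 fell.

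A pair of neighbouring nicotinic acetylcholine receptor genes fell together. Chrna3 and Chrnb4, subunits of one receptor type, lie on the same strand of the same scaffold of assembly BCM_Maur_2.0, Chrna3 at 33457002 to 33471160 and Chrnb4 at 33472495 to 33492238 (minus strand). Chrna3 had 13.8, 32.0, 60.3, 38.2 and 49.1 CPM in refractory libraries against 132, 196, 234, 295.5 and 190.5 CPM in pre-hibernation libraries (-2.44 ± 0.54, adjusted p = 0.0112). Chrnb4 had 9.48, 17.0, 32.1, 17.9 and 24.3 CPM in refractory libraries against 47.2, 78.5, 86.1, 114 and 73.7 CPM in pre-hibernation libraries (-1.99 ± 0.49, adjusted p = 0.0209). In both genes refractory library 1 was the lowest and pre-hibernation library 4 the highest, and the groups did not overlap. Chrna3 held the call in all 10 leave-one-out fits, and Chrnb4 lost it in 4. Chrnb1, a muscle-type subunit, fell by 0.53 on the log2 scale (adjusted p = 0.0446) and lost the call in 7 of the 10 leave-one-out fits. The other 11 of 14 acetylcholine receptor genes did not pass (21.4% called, against 4.02% of all genes).

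Single receptor genes rose. Gpr37l1, an astrocytic receptor, averaged 698 ± 109 CPM in refractory and 452 ± 53.4 CPM in pre-hibernation hamsters (0.63 ± 0.16, adjusted p = 0.0255; 0.164 with all libraries). Ntsr2, a neurotensin receptor of astrocytes, had 100.4, 89.0, 124, 110.4 and 112 CPM in refractory libraries against 46.7, 48.5, 48.6, 60.5 and 62.6 CPM in pre-hibernation libraries (1.01 ± 0.25, adjusted p = 0.0226). Both groups were below the long photoperiod means, 1107 ± 153 CPM for Gpr37l1 and 227 ± 61.2 CPM for Ntsr2 (n = 6). Gpr146, an orphan receptor best known from liver cholesterol control, had 59.4, 58.4, 75.4, 68.6 and 69.8 CPM in refractory libraries against 40.1, 36.5, 41.4, 41.6 and 41.3 CPM in pre-hibernation libraries (0.72 ± 0.10, adjusted p = 0.000107). Erbb3, a neuregulin receptor, averaged 144 ± 14.1 CPM in refractory and 90.4 ± 13.6 CPM in pre-hibernation hamsters (0.67 ± 0.12, adjusted p = 0.00149). Gpr146 and Erbb3 held in all 10 leave-one-out fits, whereas Gpr37l1 and Ntsr2 lost the call in 6 and 3.

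Of 42 potassium channel genes, 4 rose (9.52%, against 1.40% of all genes), none fell and the median was 0.38. They were Kcnc1, of fast-spiking neurons (0.63 ± 0.13, adjusted p = 0.00632), Kcnc4 (1.28 ± 0.32, adjusted p = 0.0203), Kcnd3 (0.60 ± 0.17, adjusted p = 0.0386) and Kcnj10, the channel by which glia buffer potassium (0.66 ± 0.16, adjusted p = 0.0164; 0.0694 with all libraries). Kcnj10 had 22.2 to 25.5 CPM in refractory and 14.1 to 17.1 CPM in pre-hibernation libraries. With neuron and oligodendrocyte marker levels as covariates 1 of the 42 passed, Kcnj10 at an adjusted p of 0.0484. The glutamate transporter Slc1a2 (0.81 ± 0.22, adjusted p = 0.0381) and the serine and glycine transporter Slc7a10 (1.13 ± 0.30, adjusted p = 0.0308), both astrocytic, rose too. TRP channels, some of which are temperature sensors, passed in 0 of 18 cases with edgeR, DESeq2 or limma voom. Of the 18, 3 had an unadjusted p under 0.05, against 3990 of all 17903 genes tested. Adjusted p was 0.963 for Trpv4, 0.362 for Trpc5 and 0.150 for Trpv2.

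Other large falls were in genes of varied function. Dhrs7c, an enzyme of the muscle sarcoplasmic reticulum, had 0.952 to 2.99 CPM in refractory and 14.6 to 30.8 CPM in pre-hibernation libraries (-3.47 ± 0.61, adjusted p = 0.00162), the largest fall among the genes named by rule. Dnase2b, a lysosomal nuclease, had 1.16 to 3.77 CPM in refractory and 11.01 to 37.9 CPM in pre-hibernation libraries (-3.26 ± 0.63, adjusted p = 0.00393). Ngfr, the low-affinity neurotrophin receptor, had 3.75 to 8.86 CPM in refractory and 21.1 to 65.7 CPM in pre-hibernation libraries (-2.57 ± 0.52, adjusted p = 0.00568). These 3 genes held in all 10 leave-one-out fits. Cpxm1, an inactive relative of carboxypeptidases, had the smallest adjusted p of the genes named, equal to that of Crabp1 (-2.10 ± 0.26, adjusted p = 1.71e-05). Tcerg1l fell too (-2.75 ± 0.77, adjusted p = 0.0404; 0.0614 with all libraries) but lost the call in 8 of 10 leave-one-out fits.

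Link proteins that bind hyaluronan to the matrix fell. Hapln3 had 0.317 to 1.52 CPM in refractory and 5.18 to 7.87 CPM in pre-hibernation libraries (-2.94 ± 0.45, adjusted p = 0.000316), and Hapln1 averaged 15.7 ± 3.25 CPM in refractory and 33.4 ± 3.68 CPM in pre-hibernation hamsters (-1.08 ± 0.24, adjusted p = 0.00989). Col16a1, a minor collagen, fell by 0.85 on the log2 scale (adjusted p = 0.0129). Sparc and Sparcl1, abundant secreted glycoproteins of glia, rose (0.54 ± 0.14 and 0.56 ± 0.14, adjusted p = 0.0292 and 0.0211; 0.197 and 0.0629 with all libraries). Of 49 matrix genes tested, 2 rose, 3 fell and 44 did not pass (10.2% called, against 4.02% of all genes). The largest rises among the genes named by rule whose groups did not overlap were Hs6st2, which sulphates heparan chains (1.82 ± 0.34, adjusted p = 0.00207), and Crtac1, a secreted matrix protein (1.70 ± 0.29, adjusted p = 0.00103). Crtac1 had 4.38 to 7.26 CPM in refractory and 1.06 to 2.65 CPM in pre-hibernation libraries, and both genes held in all 10 leave-one-out fits.

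Antioxidant genes that fell were Gpx8, a peroxidase of the endoplasmic reticulum (-0.86 ± 0.15, adjusted p = 0.000956), and Prdx1, an abundant peroxiredoxin (-0.35 ± 0.07, adjusted p = 0.00597), of 22 tested. This was 9.09% of the list, against 2.62% of all genes. Npas2 was the member of the circadian clock list that passed, of 24 (-0.64 ± 0.15, adjusted p = 0.0142). That 4.17% of the clock list was near the 4.02% of all genes. Ddit4, an inhibitor of mTOR induced by stress hormones, fell (-0.57 ± 0.13, adjusted p = 0.0117), and glutamine synthetase, Glul, rose (0.66 ± 0.15, adjusted p = 0.0142). Plxnb1 and Sema3b, a receptor and a ligand of axon guidance, fell (-0.58 ± 0.13 and -1.06 ± 0.22). Cdk6 and Cenpf, genes of the cell cycle, rose by 0.47 and 0.51 on the log2 scale but did not pass with all libraries (adjusted p = 0.503 and 0.236), while the median of the 29 cell cycle genes tested was -0.17.

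Single members of other lists passed close to the threshold. Among those that rose were Mgll, which breaks down stored lipid and endocannabinoid (0.83 ± 0.24), the GABA receptor gene Gabbr1 (0.60 ± 0.15), the smooth muscle myosin Myh11 (0.75 ± 0.18), the prostaglandin synthase Ptgs1 (0.71 ± 0.21) and the peptide hormone Apln (0.83 ± 0.24). Timp1, an inhibitor of matrix proteases, the chaperones Canx and Dnajb11, and Pla2g7, which inactivates platelet-activating factor, fell by 0.58, 0.27, 0.27 and 0.48 on the log2 scale. Adjusted p for these 9 genes lay between 0.0189 (Myh11) and 0.0494 (Ptgs1), and each call was lost in at least 3 of the 10 leave-one-out fits, up to 9 for Pla2g7 and 10 for Ptgs1. With all libraries Gabbr1 (0.0976), Apln (0.0507), Canx (0.0661), Dnajb11 (0.0712) and Pla2g7 (0.0624) did not pass. Sik1 and Slc22a3, a kinase of the cyclic AMP response and a cation transporter, did not pass (adjusted p = 0.503 and 0.836).

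**Figure D5:**
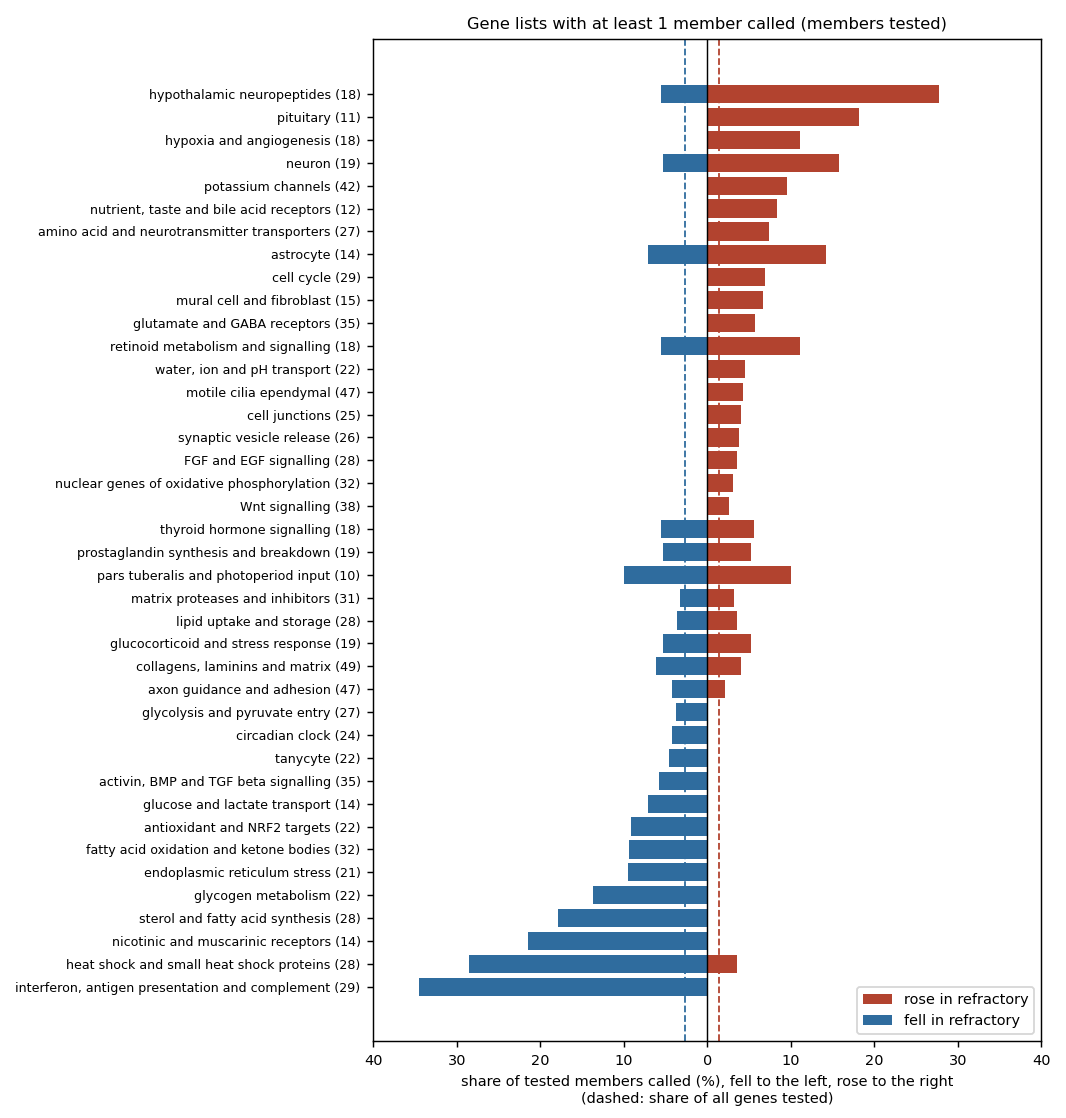
Share of tested members that rose (right, red) or fell (left, blue) in refractory against pre-hibernation hamsters, in percent, for the gene lists with at least 1 member called; the number tested is in brackets and dashed lines give the shares over all genes tested, 1.40% and 2.62%. The interferon list (10 of 29) and the heat shock list (8 of 28) have the largest shares of members that fell, and neuropeptides (5 of 18) the largest share that rose.

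Of 22 tanycyte markers tested, Gpr50 fell and 21 did not pass (4.55% called, near the 4.02% of all genes), with a median of -0.19. Nes (adjusted p = 0.702) and the tanycyte factor Rax (adjusted p = 0.584) overlapped widely, and Rax was lowest in refractory library 1, at 72.5 CPM. Motile cilia genes of ependymal cells had a positive fold change in 46 of 47 cases with a median of 0.26. Of the 47, Spag6 (adjusted p = 0.0325, and 0.0661 with all libraries) and Cfap65 passed (4.26%, near the 4.02% of all genes). The motile cilia genes summed to 8672 to 12740 CPM in refractory and 7755 to 9931 CPM in pre-hibernation libraries. Astrocyte markers summed to 6272 to 7233 CPM in refractory and 5682 to 6617 CPM in pre-hibernation libraries, and of 14 tested Ntsr2 and Slc1a2 rose and Aldh1l1 fell (21.4% called, against 4.02% of all genes; Aldh1l1 at 0.0822 with all libraries). Oligodendrocyte markers summed to 273 to 516 CPM in refractory and 268 to 345 CPM in pre-hibernation libraries. Of 9 tested, 0 passed with edgeR, 0 with DESeq2 and 1 with limma voom (3 at an unadjusted p under 0.05, against 3990 of all 17903 genes). The oligodendrocyte median was 0.70, near the 0.71 of neuron markers, with a positive fold change in 8 of 9 cases. Medians were 0.97 for oligodendrocyte precursor and 0.61 for endothelial markers, with 0 called in either list. Endothelial sums were 121.5 to 146.5 CPM in refractory and 136 to 175 CPM in pre-hibernation libraries. Mural cell and fibroblast markers had a median of 0.01 and choroid plexus markers of -0.34. Summed levels overlapped between the groups for each of the 12 marker lists, and their part in the results was not tested beyond the fit with marker covariates.

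Across 54 lists, 100 of 1183 distinct genes tested passed, against 720 of all 17903 genes tested (4.02%). Lists and members were chosen with earlier results of these data known, so these shares are not an unbiased comparison. Of the lists, 14 had no member that passed. Those 14 included immediate early genes (30 tested), receptors of energy hormones (22), sex steroid receptors and synthesis (10), Notch signalling (20) and mitochondrially encoded genes (11). Over these 14 lists, 226 tests gave 0 calls with edgeR, 15 with DESeq2 and 11 with limma voom, and 46 at an unadjusted p under 0.05. Over all 17903 genes tested, edgeR called 720, DESeq2 1268 and limma voom 1413, and 3990 had an unadjusted p under 0.05. Mitochondrially encoded genes had positive fold changes in 11 of 11 cases, with a median of 0.32.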

How the data were processed

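The authors deposited a table of raw counts per gene for each library, and these were the starting point. Per the file headers, read pairs were counted over RefSeq exons of golden hamster assembly BCM_Maur_2.0 with featureCounts 2.0.1, without strand, from alignments in a folder named for STAR, run with settings not given in the sources used here. Tissue was cut by laser capture and RNA integrity was checked, per the labels' protocols.

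Genes were filtered with filterByExpr, TMM-scaled and fitted with edgeR 4.0.16 (R 4.3.3) in 1 robust quasi-likelihood model of 33 libraries from 6 groups, without 3 libraries above 5% ribosomal RNA counts (refractory 4, pre-hibernation 5, interbout 6). Genes passed at a Benjamini-Hochberg adjusted p below 0.05. Animals are the replicates, and depth was 17.14 M counts or more. Exons of Ankrd37, Atp2b2, Calb2, Canx, Gad2, Glul, Lrat, Slc1a2, Spag6, Thrb and Trpv2 overlap those of other genes, whose reads cannot be told apart, so their values are uncertain. Every count column was used, and no pair of libraries was identical.

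Members, lists and the naming rule were chosen with earlier results of these data known. Named genes were the 10 largest rises and falls and the 5 with smallest p each way (informative symbol, mean log2 CPM of at least 1, prior count 2, groups not overlapping), up to 3 members of each list with a call, and a fixed set of genes (Cirbp was not analysed here); some genes are not reported here; other list members that passed are named where their count is given. Alternatives were RLE factors, DESeq2 1.42.0, limma 3.58.1 voom, other filters, sva 3.50.0 with 2 surrogate variables, marker covariates, the 2 groups alone, a replicate block and leaving out libraries. On data simulated for this comparison over 17742 genes, edgeR recovered 83% of genes changed 2-fold and 99% of those changed 4-fold, and 4.21% of its calls were false. Simulated counts were drawn independently around 1 mean per gene, with 100 genes changed at each fold, all above 1 CPM. They held no variation shared by genes of a library, so these rates may not hold for the real libraries. Tables and figures used Python 3.11.15, pandas 2.3.3 and matplotlib 3.10.9.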

Additional observations from a re-analysis of the deposited data

Results flagged for a closer look

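In 9 of 214 sets of 5 libraries, 1 library stood apart from the other 4 of its group by Dixon's test at the 95% level; chance alone gives about 1 in 20. Spp1, which encodes osteopontin, a secreted protein of macrophages and bone, had 1250 CPM in pre-hibernation library 2 against 1.78 to 2.64 CPM in the others of that group, and did not pass (adjusted p = 0.0659; 0.0452 with all libraries). In refractory library 1, Canx was low at 439 CPM (others 521 to 556). In refractory library 2, Cdk6 was high at 39.2 CPM (others 25.0 to 27.8) and Kcnc1 at 29.4 CPM (others 22.3 to 23.9). In refractory library 3, Crabp1 was high at 35 CPM (others 20.1 to 23.1), Tcerg1l high at 6.40 CPM (others 1.65 to 2.46) and Dnase2b low at 1.16 CPM (others 2.78 to 3.77). Robo2 was low in pre-hibernation library 1 at 0.132 CPM (others 0.471 to 0.616), and Gpr146 in pre-hibernation library 2 at 36.5 CPM (others 40.1 to 41.6). For Cdk6, Crabp1, Dnase2b, Gpr146, Kcnc1, Robo2 and Tcerg1l the groups did not overlap with or without that library.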

How the results depend on the processing

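Against 720 genes that passed (251 rose, 469 fell; 100 list genes), DESeq2 called 1268 (523 rose, 745 fell; 163 list genes), limma voom 1413 (598 rose, 815 fell; 172), no filter beyond 1 count 427 (103 rose; 58), 2 surrogate variables 285 (108 rose, 177 fell; 43) and marker covariates 211 (82 rose, 129 fell; 31), of which 159 were among the 720. Refractory library 4 put back gave 1430 (886 rose; 165), all 36 libraries 491 rises, and the 2 groups alone 426 rises. Leaving out 1 library gave 253 (without pre-hibernation library 4) to 993 calls (without refractory library 6), 47 to 373 rises, 189 to 620 falls and 41 to 123 list genes; the cause was not tested. RLE factors, a filter of 1 CPM in 5 libraries, removing ribosomal RNA and mitochondrial genes, pre-hibernation library 5 put back and a fit that was not robust kept the total within 1.5 times, and in 0 of these fits did a named gene change sign and pass.

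The replicate number as a block gave 932 calls, and 509 with all 36 libraries against 959 without it. Same-numbered libraries deviated together with correlations of 0.02, 0.01, -0.15 and 0.20, so the numbers were not taken as pairs. Depth limits genes near or below 1 CPM, such as Isg15 and Perm1.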

Other observations

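Several genes that fell are best known from striated muscle, and are given here as values chosen after they were seen, with no test of the group. Perm1, a muscle regulator of mitochondria, averaged 0.0249 ± 0.0392 CPM in refractory and 0.890 ± 0.550 CPM in pre-hibernation hamsters. Dysf, a membrane repair protein, had 4.34 to 9.72 CPM in refractory and 17.0 to 24.2 CPM in pre-hibernation libraries (log2 fold change -1.54 ± 0.23, adjusted p = 0.000243, edgeR quasi-likelihood). Tpm2, a tropomyosin, had 17.9 to 28.6 CPM in refractory and 53.1 to 63.0 CPM in pre-hibernation libraries (-1.31 ± 0.19, adjusted p = 0.000126). Cav3 (-1.75 ± 0.31), Casq1 (-1.17 ± 0.26), Trdn (-1.41 ± 0.36), Smpx (-2.68 ± 0.65), Synpo2l (-1.17 ± 0.28) and Ckm (-0.91 ± 0.21) fell as well, with adjusted p between 0.00149 and 0.0235; with all libraries Casq1, Trdn, Smpx and Synpo2l did not pass (0.655, 0.593, 0.0946 and 0.0969). Mef2c, a transcription factor of muscle, neurons and vessels, averaged 148 ± 43.1 CPM in refractory and 277 ± 37.1 CPM in pre-hibernation hamsters (-0.90 ± 0.20, adjusted p = 0.0102). Of 28 sarcomere genes looked up 18 passed the filter. Of these 18, 1 fell and none rose, against 2.62% of all genes that fell. The 1 that fell was Actn3 (-1.05 ± 0.31, adjusted p = 0.0498, and 0.121 with all libraries). The 18 genes summed to 50.04 to 59.7 CPM in refractory and 54.1 to 67.9 CPM in pre-hibernation libraries. Acta1, the main actin of skeletal muscle, was at 1.51 ± 0.593 CPM in refractory hamsters and 1.56 ± 0.716 CPM in pre-hibernation hamsters, and Myh1, Myh2, Myh4 and Myl1 had 14 counts or fewer in each library.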
